A study of Homo sapiens with 18 samples.

Results

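The sites described here are places in the genome of untreated LCC cells that carried acetylation of histone H3 lysine 27 (H3K27ac) but had no summit of either H3K4 methylation mark nearby. A member was an H3K27ac peak summit of LCC replicate 1 with a replicate 2 summit within 500 bp and with no LCC H3K4me1 or H3K4me3 summit within 1 kb, and members within 1 kb of each other were merged. Of the 35337 replicate 1 summits that replicate 2 also had, 2960 met this condition, or 8.38%, and they merged into 2827 sites, called bare sites below. The number depends on the replicates, with 5743 sites without replicate 2 and 8496 without replicate 1. Of the 2827 sites, 2698 held a single summit. The 13 summit lists of the study together hold 947675 summits. Which sites are bare follows from the LCC peak lists themselves, so the absence of H3K4 summits within 1 kb in LCC is not a result.

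H3K27ac is placed by the acetyltransferases p300 and CBP and marks active promoters and enhancers. H3K4me1, written mainly by KMT2C and KMT2D, is found at enhancers and beside promoters. H3K4me3, written by the SET1 and MLL complexes, is found at promoters. Active enhancers therefore usually carry H3K27ac together with H3K4me1, and active promoters carry H3K27ac together with H3K4me3. A histone mark lies on the nucleosomes around an open site and can extend over several nucleosomes, while a peak summit is the single base where the signal was highest.

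ChIP-seq, which sequences the DNA bound to immunoprecipitated chromatin, was used to map the marks in human lung adenocarcinoma lines under 4 conditions. These were the line H2087-LCC (LCC), LCC given TGF-β1 at 100 nM for 4 days per the labels (TGFb), the line H2087-LCC-SO1 (SO1), and H2030, a separate lung adenocarcinoma line. LCC, TGFb and SO1 shared a medium with added hormones and growth factors, and H2030 grew in a simpler one, so line and medium cannot be told apart there. LCC H3K27ac had 2 biological replicates and every other mark and condition 1 library, so experimental error can be judged from LCC H3K27ac alone, and no test between conditions was made. The series is titled as a study of STING and dormant metastasis, and the labels do not say how SO1 was obtained. The identity of the cells was not checked against marker genes, because the positions are hg19 coordinates and no hg19 annotation or genome was used here, for which reason no gene and no sequence is given either.

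H3K27ac lists held between 50628 (LCC replicate 1) and 68069 (TGFb) summits on chromosomes 1 to 22 and X. H3K4me1 lists held 128082 to 143813, and H3K4me3 lists 25624 to 28850. Each summit has a score, read as −log10 of a p or q value, which ranks peaks within its own list. The depth of the libraries is unknown. Shares are given with Wilson 95% intervals, which cover counting error only. A site was counted as marked in a condition when that condition had a summit within 1 kb of it.

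LCC sites of 2 other kinds were built with the same steps for comparison. Enhancer-type sites had an H3K4me1 but no H3K4me3 summit within 1 kb (14980 sites), and promoter-type sites had an H3K4me3 summit within 1 kb (15593 sites). Without regard to H3K4 marks, the summits found in both replicates merged into 33188 sites, the background for the shares below.

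Most bare sites had an LCC H3K4 summit within 3 kb. Their nearest LCC H3K4 summit stood at a median of 1766 bp (quartiles 1218.5 and 2778.5 bp), and 40.1% had one between 1 and 1.5 kb away. The name "without either H3K4 mark" therefore holds for the 1 kb window only. For 85.9% of the sites the nearest summit was H3K4me1, and for 14.1% it was H3K4me3. An LCC H3K4me1 summit lay within 10 kb of 96.7% of the bare sites, below the 99.4% of all LCC H3K27ac sites. Only 605 sites, or 21.4%, had no LCC H3K4 summit within 3 kb, 162 had none within 5 kb and 53, or 1.87%, had none within 10 kb.

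The neighbouring H3K4me1 summits mostly scored above the median of their list. The nearest LCC H3K4me1 summit of a bare site had a median score of 47.6, which stood at the 91.1st percentile of the LCC H3K4me1 list, and 88.1% of these summits scored above the list median of 11.6. The highest H3K4me1 summit within 1 kb of the enhancer-type sites had a lower median score, 40.3, but a larger share of these, 96.1%, scored above the list median. H3K4me1 summits flanked a bare site on both sides within 5 kb in 39.5% of cases and on one side only in 52.5%. Between the nearest H3K4me1 summit on the left and that on the right lay a median of 8592 bp (n = 2826 sites). The files give no peak widths, so it was not tested whether a bare site lies inside a wide H3K4me1 peak whose summit is elsewhere.

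**Figure D1:**
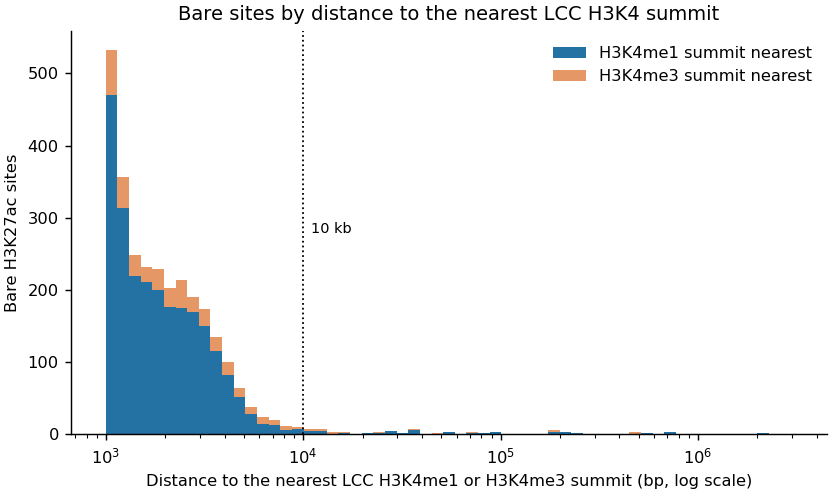
Number of bare sites by the distance to the nearest LCC H3K4me1 or H3K4me3 summit (log scale), stacked by which mark is nearest; the dotted line is at 10 kb. The numbers are highest just past 1 kb and only 53 of the 2827 sites lie beyond the line.

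Summits next to the 1 kb threshold had similar H3K27ac scores on either side. The 3 summits just inside the rule were at chr1:167532719, chr2:233703052 and chr5:72729561, the nearest that the rule kept, with replicate 1 scores of 3.78, 28.3 and 21.1. The 3 just outside were at chr3:177366357, chr9:129917639 and chr9:140094399, all next to H3K4me1, with scores of 21.3, 17.1 and 4.62. In all, 678 summits lay within 200 bp of the threshold on the inside, with a median replicate 1 score of 14.1, and 1497 within 200 bp on the outside, with 12.7.

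In LCC itself the bare sites had about the H3K27ac scores of enhancer-type sites. The highest score within 1 kb had a median of 10.7 in replicate 1 and 18.1 in replicate 2, against 11.0 and 20.2 at enhancer-type sites and 34.6 and 73.8 at promoter-type sites. The replicate 1 median of the bare sites lay at the 45.4th percentile of its list. In 7.78% of the bare sites the highest replicate 1 summit within 1 kb lay outside the site itself. The 2 replicates placed their summits a median of 93 bp apart at bare summits, 81 bp at enhancer-type and 50 bp at promoter-type summits.

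Bare sites stood in denser H3K27ac than the others. The next H3K27ac summit found in both replicates was a median of 3124.5 bp away, against 7686.5 bp for enhancer-type and 12141 bp for promoter-type summits. Within 5 kb, 65.1% of bare, 38.0% of enhancer-type and 25.7% of promoter-type summits had such a neighbour.

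H3K27ac at the bare sites was found in TGFb at 1808 sites (64.0%, interval 62.2 to 65.7), in SO1 at 1552 (54.9%, 53.1 to 56.7) and in H2030 at 878 (31.1%, 29.4 to 32.8). Among all LCC H3K27ac sites the shares were 88.7% in TGFb, 81.6% in SO1 and 53.7% in H2030. Enhancer-type sites gave 85.5%, 74.3% and 35.3%, and promoter-type sites 96.0%, 93.2% and 75.2%. The bare sites thus had the lowest share of the 3 kinds in each condition at this distance. With bare sites defined without replicate 1, the SO1 share was 36.0%.

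All 4 conditions had H3K27ac at 526 bare sites (18.6%), against 47.9% of all LCC H3K27ac sites. TGFb and SO1 but not H2030 had it at 704 (24.9%), TGFb alone at 446 (15.8%), SO1 alone at 220 (7.78%) and H2030 alone at 118 (4.17%). These patterns were not counted over all LCC H3K27ac sites, so they are not read as particular to bare sites. At 579 bare sites (20.5%) none of the 3 other conditions had H3K27ac. This held for 5.83% of all LCC H3K27ac sites, 7.95% of enhancer-type and 1.22% of promoter-type sites.

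How often a second library of the same cells has a summit can be read only at sites defined from a single LCC replicate. The bare sites above have summits of both replicates by the rule, so the shares below do not carry over to them. When bare sites were defined from replicate 1 alone, 61.7% of the 5743 sites had a replicate 2 summit within 1 kb, while 50.9% had a TGFb, 44.2% an SO1 and 26.99% an H2030 summit. When they were defined from replicate 2 alone, 43.7% of the 8496 sites had a replicate 1 summit, while 47.0% had a TGFb, 36.0% an SO1 and 23.1% an H2030 summit. TGFb thus lay below the other replicate in one direction and above it in the other, and SO1 and H2030 lay below it in both. Enhancer-type sites were found more often in the other replicate, with 81.1% and 59.1%. The lists differ in length, with 50628 summits in replicate 1, 62947 in replicate 2 and 68069 in TGFb, and the part of list length in these shares was not tested beyond the equal-length setting in the closing section.

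**Figure D2:**
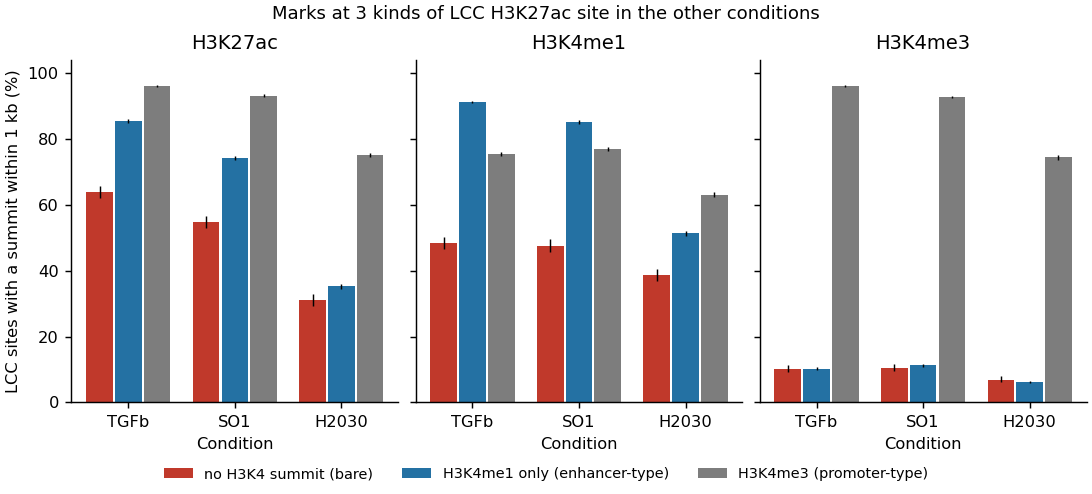
Share of bare, enhancer-type and promoter-type LCC sites with a summit within 1 kb in TGFb, SO1 and H2030, one panel per mark; error bars are Wilson 95% intervals. Bare sites are lowest in H3K27ac and H3K4me1 in every condition and lie near enhancer-type sites in H3K4me3. By the rule, bare sites lack both H3K4 marks in LCC and enhancer-type sites lack H3K4me3.

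The order of bare and enhancer-type sites depended on the distance allowed. Within 10 kb, 94.8% of the bare sites had TGFb H3K27ac, and so had 95.1% of enhancer-type sites, with overlapping intervals (94.0 to 95.6 and 94.7 to 95.4). In SO1 the shares at 10 kb were 90.4% of bare and 87.2% of enhancer-type sites, and in H2030 66.1% and 56.2%, the reverse of the order at 1 kb. In H2030 the order had already turned at 2.5 kb, with 44.3% of bare and 40.4% of enhancer-type sites. The bare sites also have nearer H3K27ac neighbours in LCC, as given above. A summit that moved within an acetylated stretch and a site that lost H3K27ac cannot be told apart at 1 kb.

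**Figure D3:**
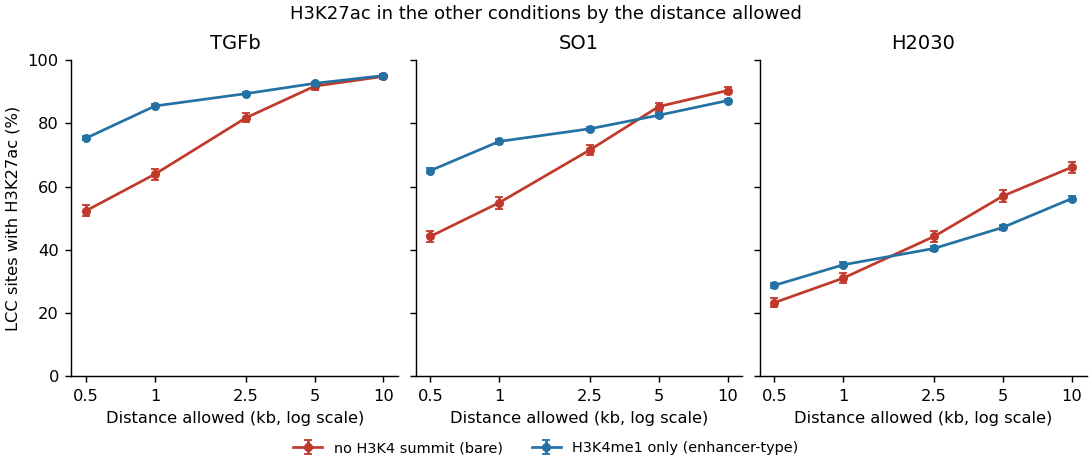
Share of bare and enhancer-type LCC sites with H3K27ac in TGFb, SO1 and H2030 as the distance allowed grows from 0.5 to 10 kb (log scale); error bars are Wilson 95% intervals. Bare sites start lower in every condition, meet the enhancer-type sites at 10 kb in TGFb (94.8% and 95.1%) and pass them in SO1 and H2030.

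Stronger bare sites were found more often elsewhere. Sites were ranked by support, the lower of the 2 LCC replicate scores, and divided into 5 equal classes. In the weakest and the strongest class the share with H3K27ac was 47.9% and 79.5% in TGFb, 34.5% and 78.6% in SO1, and 21.2% and 50.7% in H2030. Enhancer-type sites within the same score ranges had 75.3% and 92.1%, 59.2% and 89.5%, and 27.5% and 51.1%. In TGFb and SO1 the intervals of bare and enhancer-type sites did not overlap in any class. In H2030 they overlapped in every class but the weakest, and in the strongest were 46.6 to 54.8 and 49.2 to 52.9.

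**Figure D4:**
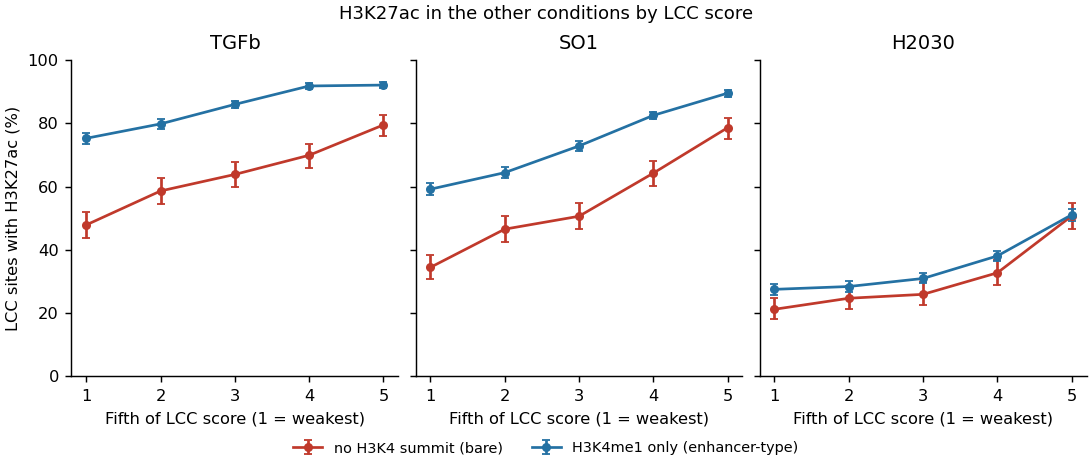
Share of LCC sites with H3K27ac within 1 kb in TGFb, SO1 and H2030 by class of the lower LCC replicate score (1 weakest, 5 strongest, 5 classes), for bare and enhancer-type sites in the same score ranges; error bars are Wilson 95% intervals. Shares are higher in the strongest than in the weakest class for both kinds, and the 2 kinds meet in H2030 at 50.7% and 51.1%.

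Bare sites, chosen for lacking LCC H3K4me1, also had H3K4me1 in the other conditions less often than all LCC H3K27ac sites. H3K4me1 was present within 1 kb at 1365 bare sites in TGFb (48.3%, 46.4 to 50.1), at 1347 in SO1 (47.6%, 45.8 to 49.5) and at 1091 in H2030 (38.6%, 36.8 to 40.4). Of all LCC H3K27ac sites, 80.4%, 78.3% and 55.9% had it, and of enhancer-type sites 91.3%, 85.1% and 51.4%. For scale, 8.97%, 8.13% and 8.15% of the genome spanned by summits lay within 1 kb of a TGFb, SO1 or H2030 H3K4me1 summit. At least 1 of the 3 conditions had H3K4me1 at 2186 bare sites (77.3%), and all 3 had it at 379 (13.4%), against 91.7% and 44.3% of all LCC H3K27ac sites. When a mark was counted within 500 bp, the H2030 share of bare sites with H3K4me1 was 24.5%. In LCC the whole set has no H3K4me1 summit by the rule, and a single LCC H3K4me1 library without a replicate decided it. Enhancer-type sites have an LCC H3K4me1 summit within 1 kb by their rule, and 81.1% of all LCC H3K27ac sites had one. The lower shares at bare sites are therefore not read as a result, since the sites were selected on the same mark in LCC.

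Most H3K4me1 summits at bare sites scored above the median of their list, as at LCC H3K27ac sites in general. In TGFb their median score was 31.5 (83.3rd percentile of the list), in SO1 42.6 (79.5th) and in H2030 15.3 (69.3rd). At enhancer-type sites the medians were 34.2, 51.2 and 17.5. Of the marked bare sites 85.5% in TGFb, 76.3% in SO1 and 69.3% in H2030 scored above the list median, against 86.0%, 83.8% and 80.6% of all marked LCC H3K27ac sites.

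Bare sites with H3K27ac in a condition had H3K4me1 more often in it, as did enhancer-type sites. In TGFb 54.4% of the bare sites with H3K27ac had H3K4me1, against 37.4% of those without. The shares were 55.7% and 37.8% in SO1 and 59.2% and 29.3% in H2030. Enhancer-type sites with and without H3K27ac had H3K4me1 at 93.0% and 81.2% in TGFb, 92.6% and 63.6% in SO1, and 85.6% and 32.8% in H2030. These are shares of sites in single libraries, and no test was made of them.

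In each condition the bare sites fell into several states. In TGFb 876 (31.0%) had H3K27ac with H3K4me1 and without H3K4me3, 229 (8.10%) had H3K27ac with H3K4me3, and 703 (24.9%) had H3K27ac alone. H3K27ac alone was seen at 572 sites (20.2%) in SO1 and 295 (10.4%) in H2030. Of the enhancer-type sites 5.00% in TGFb, 4.39% in SO1 and 3.95% in H2030 had H3K27ac alone. No mark was found within 1 kb at 594 bare sites (21.0%) in TGFb, 742 (26.2%) in SO1 and 1332 (47.1%) in H2030. Of enhancer-type sites 2.54%, 9.19% and 43.1% had none. These contrasts are not read as results, since LCC H3K4me1 is absent from bare and present at enhancer-type sites by the rule.

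**Figure D5:**
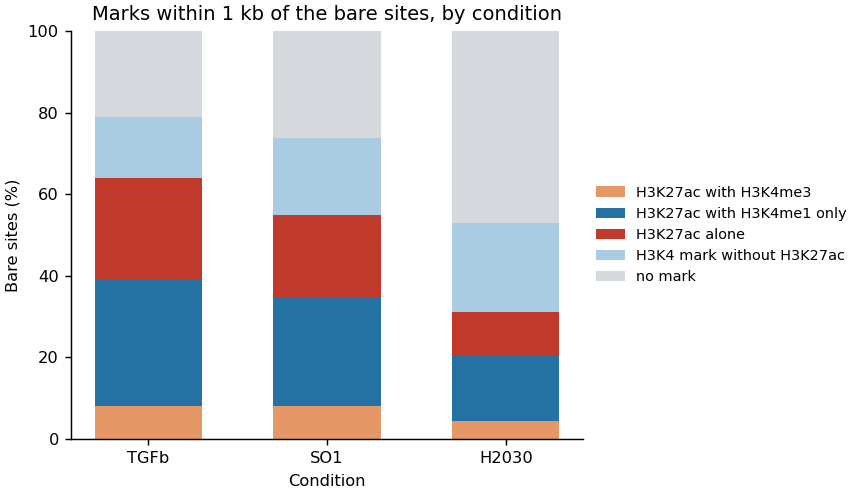
Bare sites by the marks found within 1 kb in TGFb, SO1 and H2030, as a share of the 2827 sites. H3K27ac alone takes 24.9%, 20.2% and 10.4%, and sites with no mark 21.0%, 26.2% and 47.1%.

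H3K4me3 was rare at the bare sites in all conditions. It was present at 290 sites in TGFb (10.3%), 296 in SO1 (10.5%) and 196 in H2030 (6.93%), beside 50.5%, 49.5% and 38.2% of all LCC H3K27ac sites. Enhancer-type sites gave 10.2%, 11.2% and 6.14%. Both kinds lack LCC H3K4me3 by the rule, so their low shares beside all sites are not read as a result. The H3K4me3 summits at bare sites were mostly weak, with median scores of 7.93 in TGFb, 11.1 in SO1 and 19.6 in H2030, where the list medians were 147, 183 and 247. All 3 conditions had H3K4me3 at 32 bare sites (1.13%), against 1.17% of enhancer-type sites and 34.6% of all LCC H3K27ac sites.

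Bare sites were also divided by the LCC H3K4 summits within 3 kb. Of the shares given here, the group with H3K4me3 had a Wilson interval clear of both other groups only for H2030 H3K27ac. That interval was 34.1 to 42.4, against 27.5 to 31.9 with H3K4me1 but no H3K4me3 and 25.3 to 32.5 with neither. Of the same shares, the group with H3K4me1 but no H3K4me3 was clear of both others only for H3K4me1 in TGFb and SO1. Its intervals there were 52.3 to 57.0 and 49.5 to 54.2. This division was chosen after the values were seen. The 529 sites with H3K4me3 within 3 kb had H3K27ac in 55.0% of cases in TGFb, 51.4% in SO1 and 38.2% in H2030, and H3K4me1 in 36.5%, 40.5% and 37.4%. The 1693 sites with H3K4me1 but no H3K4me3 within 3 kb had H3K27ac in 67.1%, 57.3% and 29.7%, and H3K4me1 in 54.6%, 51.9% and 40.2%. The 605 sites with neither within 3 kb had H3K27ac in 63.0%, 51.2% and 28.8%, and H3K4me1 in 40.8%, 42.1% and 35.0%. Median LCC scores were alike, at 11.3, 10.8 and 10.2 in replicate 1.

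H3K4me1 was most frequent at bare sites between 1 and 1.5 kb from the nearest LCC H3K4 summit. From there up to 10 kb it showed no steady order. In TGFb it was present at 53.7% of the 1134 bare sites between 1 and 1.5 kb, 46.7% of the 484 between 1.5 and 2 kb, 46.9% of the 604 between 2 and 3 kb, 43.8% of the 443 between 3 and 5 kb, and 45.0% of the 109 between 5 and 10 kb. The TGFb interval between 1 and 1.5 kb, 50.8 to 56.6, was clear only of that between 3 and 5 kb, 39.2 to 48.4, among these classes. The shares in these classes lay between 38.5% and 51.6% in SO1 and between 35.3% and 41.1% in H2030, both highest between 1 and 1.5 kb. Sites with no H3K4 summit of any condition within 1 kb made up 13.1% between 1 and 1.5 kb and 29.4% between 5 and 10 kb. Beyond 10 kb each of the 3 conditions had H3K4me1 at 4 of 53 sites (7.55%, 2.97 to 17.9). H3K27ac in TGFb was present at 66.9%, 58.1%, 64.1%, 67.5% and 65.1% in the same classes up to 10 kb. Beyond 10 kb it was 20.8%, or 11 of 53 sites.

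Of the 2827 bare sites, 524 (18.5%, 17.1 to 20.0) had no H3K4me1 or H3K4me3 summit of any condition within 1 kb. The share was 28.4% without LCC replicate 1, and 34.8% when a mark was counted within 500 bp. The share among all LCC H3K27ac sites was 1.53% (508 sites, since merging joins some bare sites to marked ones), and nothing is read from this contrast, since bare sites lack the LCC marks by the rule. H3K27ac was found at 40.1% of these 524 sites in TGFb, 35.3% in SO1 and 19.8% in H2030, and at 223 of them in none of the 3.

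The 37 bare sites with no H3K4 summit of any condition within 10 kb mostly had no H3K27ac in the other conditions. No regions prone to false peaks were masked here, so whether all 37 are true H3K27ac sites is unknown. The median LCC scores of the 37 were 12.4 in replicate 1 and 9.36 in replicate 2. TGFb had H3K27ac at 3 of them, SO1 at 2 and H2030 at 1, and 34 had it in none of the 3. The exception in strength was chr15:67369169, 10077 bp from the nearest LCC H3K4 summit, which was chosen after its values were seen. It scored 78.4 and 179 in the LCC replicates, 175 in TGFb, 116 in SO1 and 94.4 in H2030, so that H3K27ac was present in all 5 libraries.

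H3K27ac in all 4 conditions without an H3K4 summit of any within 1 kb was seen at 40 bare sites, or 1.41%, against 0.118% of all LCC H3K27ac sites. Nothing is read from this contrast either, since a site without an LCC H3K4 summit is bare by the rule. The 40 sites lay on 19 chromosomes, with replicate 1 scores from 3.04 to 309.8 and a median of 31.3. Of the 40, 16 had LCC H3K4me3 within 3 kb, 10 had H3K4me1 only and 14 had neither. Among all bare sites these groups made up 18.7%, 59.9% and 21.4%.

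The strongest of these 40 sites was chr11:122933653. It scored 309.8 and 419 in the LCC replicates, 522 in TGFb, 449 in SO1 and 419 in H2030. The nearest H3K4me3 summit stood 1100 bp away in LCC, with a score of 498, and 1079 bp, 1062 bp and 1096 bp away in TGFb, SO1 and H2030. The nearest H3K4me1 summits lay 1187 to 1266 bp away. The site thus sat at a nearly constant distance from an H3K4me3 summit in all conditions and just beyond the 1 kb limit.

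The next 4 sites by support also lay just over 1 kb from LCC H3K4me3. The second, chr11:62495744, scored 191 and 220.2 in LCC, 358 in TGFb, 388 in SO1 and 429.8 in H2030, with H3K4me3 1243 to 1449 bp away. At chr17:43303274 the scores were 141 and 300.5 in LCC, 488 in TGFb, 484 in SO1 and 382 in H2030, with LCC H3K4me3 of score 47.6 at 1176 bp and H2030 H3K4me3 at 4360 bp. At chr1:154192793 they were 134 and 272 in LCC, 411 in TGFb, 292 in SO1 and 313 in H2030, with LCC H3K4me3 of score 589 at 1196 bp. All 5 libraries had H3K27ac at each, as the choice of these sites required, and the nearest LCC H3K4 mark was H3K4me3 at all 5 sites. The last, chr11:118306535, scored 118 and 240.1 in LCC, 365 in TGFb, 265 in SO1 and 322 in H2030, with H3K4me3 between 1146 and 1227 bp away in the 4 conditions.

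The 8 bare sites with the highest support included the first of these. The top site, chr16:65444282, scored 317 and 423 in LCC, 472 in TGFb, 579 in SO1 and 82.1 in H2030. It lay 4594 bp from the nearest LCC H3K4me1 summit (score 89.4), while TGFb, SO1 and H2030 had H3K4me1 within 1 kb, with scores of 93.5, 109 and 36.4. H3K4me3 was at least 17155 bp away in every condition. Bare in LCC alone, this distal site had H3K27ac and H3K4me1 together in the 3 other conditions.

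The site chr12:12877963 scored 272 and 399.7 in LCC, 535 in TGFb, 504 in SO1 and 437 in H2030. TGFb and SO1 had weak H3K4me1 there (11.8 and 13.7), and H3K4me3 lay between 7368 and 7428 bp away in all conditions. At chr9:86594866 the H3K27ac scores were 267 and 355 in LCC, 469 in TGFb, 455 in SO1 and 404 in H2030. There H3K4me3 lay 1077 bp away in LCC and 1093 bp in SO1, but within 1 kb in TGFb (34 bp, score 569.7) and in H2030 (502 bp, 518). H3K4me3 was thus near in all 4 conditions, and the 1 kb limit separated them.

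At chr15:90708559 LCC scored 265 and 322 and H2030 484, while the nearest TGFb and SO1 summits stood 1095 and 1171 bp away. LCC H3K4me1 (94.7) lay 1093 bp away, and SO1 and H2030 had H3K4me1 within 1 kb, with 72.5 and 97.0. The site chr11:86452151 scored 236 and 343 in LCC, 461 in TGFb, 562 in SO1 and 381 in H2030, and only H2030 had H3K4me1 within 1 kb (83.5). TGFb and SO1 had weak H3K4me3 there, at 4.73 and 8.33. At chr6:26123881, with 234 and 301 in LCC, 508 in TGFb, 469 in SO1 and 391 in H2030, H3K4me3 lay 2351 bp away in LCC and within 1 kb in TGFb (599) and H2030 (475). The last of the 8, chr7:2393911, scored 234 and 337 in LCC, 422 in TGFb, 407 in SO1 and 411 in H2030, with H3K4me3 1017 to 1035 bp away in all 4 conditions and H3K4me1 within 1 kb in TGFb (24.3). H3K27ac was within 1 kb in all libraries at 7 of these 8 sites, beside 18.6% of all bare and 47.9% of all LCC H3K27ac sites. The 8 were picked by LCC score, and stronger bare sites were found more often elsewhere, so this count is not read as a result.

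Few bare sites had no TGFb H3K27ac summit within 10 kb. Such sites numbered 146 bare sites in TGFb (5.16%), 272 in SO1 (9.62%) and 958 in H2030 (33.9%), beside 3%, 7.67% and 29.8% of all LCC H3K27ac sites. The strongest in TGFb was chr20:30292186, which scored 54.3 and 106 in LCC. The nearest H3K27ac summits were 10986 bp away in TGFb, 8833 bp in SO1 and 12382 bp in H2030, while H3K4me1 was present in TGFb (76.1) and H2030 (87.0). The second was chr17:4424430-4425079 with 32.1 and 28.2 in LCC, where TGFb H3K27ac was 24042 bp away and weak H3K4me1 was present in TGFb (8.24) and SO1 (4.18), with LCC H3K4me1 1245 bp away. The third, chr11:51590408-51591117, had 34.1 and 25.1 in LCC and weak LCC H3K4me3 (5.10) at 1482 bp. The nearest TGFb summits stood 3375085 bp (H3K27ac), 812131 bp (H3K4me1) and 1333921 bp (H3K4me3) away. In SO1 the nearest summit of any mark was 812226 bp and in H2030 117167 bp away, and LCC H3K4me1 was 812045 bp away.

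The 3 strongest bare sites without SO1 H3K27ac within 10 kb had H3K27ac in TGFb. At chr10:7080102 LCC scored 83.4 and 80.05 and TGFb 215, while the nearest SO1 summit was 64403 bp away and SO1 had weak H3K4me1 (5.23). At chr11:79125986 LCC scored 63.5 and 139.8 and TGFb 253, with SO1 H3K27ac 457033 bp away but SO1 H3K4me1 4554 bp away. At chr15:68207749 LCC scored 51.5 and 77.2 and TGFb 125, with SO1 H3K27ac 11937 bp and SO1 H3K4me1 11075 bp away. H3K27ac was absent within 10 kb in H2030 at all 3.

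The strongest bare sites without H2030 H3K27ac were strong in all H2087 libraries. The site chr6:40929506 scored 145 and 330.0 in LCC, 363 in TGFb and 313 in SO1, and H2030 had weak H3K4me1 there (3.06) with H3K27ac 66696 bp away. At chr1:203147069 the scores were 141 and 338 in LCC, 394 in TGFb and 444 in SO1, with H2030 H3K27ac 49756 bp away. At chr10:112085960 they were 139 and 182 in LCC, 309 in TGFb and 569.9 in SO1, with H2030 H3K27ac 10526 bp away and H2030 H3K4me1 of 5.03.

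Blocks of 500 kb that are nearly empty in another condition, with at least 15 LCC summits of the 3 marks and at most 5% of that number there, held few bare sites. They held 5 in TGFb (1 block), 1 in SO1 (12 blocks) and 23 in H2030 (32 blocks). Without them the H3K27ac shares were 64.1%, 54.9% and 31.3%. In such blocks missing DNA and missing marks cannot be told apart.

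The highest H3K4me1 scores in another condition came from 7 bare sites. At chr10:34987732, where LCC H3K4me1 was 9837 bp and LCC H3K4me3 9617 bp away, H3K4me1 scored 145 in TGFb, 165 in SO1 and 48.9 in H2030. H3K27ac was 37.4 and 135 in LCC, 174 in TGFb, 175 in SO1 and 164 in H2030. At chr1:205227862 H3K4me1 scored 141 in TGFb, 169 in SO1 and 13.3 in H2030, with LCC H3K4me1 2168 bp away. H3K27ac there was 25.2 and 68.6 in LCC, 316 in TGFb, 346 in SO1 and 6.76 in H2030. At both sites TGFb, SO1 and H2030 had H3K27ac and H3K4me1 together, and H3K4me3 of LCC, TGFb and SO1 was over 9 kb away. H2030 H3K4me3 (13.7) lay 853 bp from chr10:34987732, and 29939 bp from chr1:205227862.

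The third in TGFb, chr12:52541955, scored 134 for H3K4me1 in TGFb and 122 in H2030, and was also the first in H2030, but LCC and SO1 H3K4me1 lay just beyond the limit at 1073 and 1083 bp. In SO1 the highest was chr10:121075020 (192), with LCC H3K4me1 1004 bp away, followed by chr1:145226503 (171). At the latter LCC H3K27ac was weak (11.5 and 16.9), TGFb scored 132 and SO1 136, and LCC H3K4me1 was 3182 bp away. In H2030 the next were chr14:100906392 (109) and chr3:10234309 (108), with LCC H3K4me1 1025 and 1064 bp away. Of the 7 sites, 4 thus had LCC H3K4me1 between 1004 and 1073 bp away.

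The highest H3K4me3 summits at bare sites lay near H3K4me3 summits of LCC. At chr16:3929792 TGFb H3K4me3 scored 639, and the nearest LCC, SO1 and H2030 H3K4me3 summits were 1342, 1369 and 1341 bp away. LCC H3K27ac was 3.25 and 42.8 there, and the H3K27ac summits of the 3 other conditions stood 1268 to 1277 bp away. At chr11:65382292 TGFb H3K4me3 scored 623 and H2030 538, with LCC 1154 bp away. At chr22:46372389, the third in TGFb and the second in SO1, H3K4me3 scored 616 in TGFb, 669 in SO1 and 435 in H2030, with LCC H3K4me3 2505 bp away. It had H3K27ac of 31.1 and 31.7 in LCC, 137 in TGFb and 105.4 in SO1.

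The first in SO1 was chr19:1862568, with H3K4me3 of 725 in SO1 and 529 in TGFb and LCC H3K4me3 2136 bp away, and the third was chr10:112257289, with 661 in SO1, 572 in TGFb and 512 in H2030. In H2030 the highest were chr1:1285185 (630.4), chr8:42751610 (591) and chr9:99180084 (575), with LCC H3K4me3 1060, 1063 and 1243 bp away. LCC had an H3K4me3 summit within 3 kb at all 8 of these sites, beside 18.7% of all bare sites. The 8 were picked for the highest H3K4me3 scores elsewhere, so this count is not read as a result.

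The same rule was applied to 1 H3K27ac library of each other condition with that condition's own H3K4 lists. Summits without an H3K4 summit made up 11.9% in TGFb, 9.53% in SO1 and 18.8% in H2030, and 12.6% of LCC replicate 1. They merged into 7487, 4938 and 8908 sites. Of the LCC bare sites, 22.99% lay within 1 kb of a TGFb site of this kind, 17.8% of an SO1 site and 9.80% of an H2030 site. In reverse, 8.71% of the TGFb, 10.3% of the SO1 and 3.15% of the H2030 sites lay within 1 kb of an LCC bare site. LCC bare sites needed both replicates and the others a single library, so the lists differ in length and stringency. The share of all LCC H3K27ac sites near such sites of the other conditions was not computed. Whether bare sites meet them more or less often than other LCC H3K27ac sites is therefore unknown.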

How the data were processed

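The submitters' processing notes name Bowtie2, SAMtools and deepTools, and hg19 as the build. How peaks were called, and against which control, is not stated by the labels or files read here. The 13 deposited files list 1 bp summits with a score per peak, read as the authors' −log10 of a p or q value, because the lowest scores lie just above 1.30, the −log10 of 0.05. The names of the peaks in a file hold a single library name, which marks calling by library. The 5 input samples were not analysed here. Groups were taken from the sample titles. Summits on chromosomes 1 to 22 and X were kept, which left out 29 to 238 per library, and no regions within these chromosomes were masked.

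Sites, distances and shares were computed with Python 3.11.15 and NumPy 2.4.6, and the steps were tested on simulated data. The score of a site is the highest within 1 kb. Named sites follow a fixed rule: the 8 with the highest support, the 5 highest with H3K27ac in all 4 conditions and no H3K4 mark of any, the 3 highest lost per condition at 10 kb, the 3 with the highest H3K4me1 and H3K4me3 score per condition, and the 3 summits on either side of the 1 kb threshold. The site chr15:67369169 falls outside it. The members and lists were chosen with earlier results of these data known. The settings tried are given with their effect in the closing section. Sequences and gene names were not used here.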

Additional observations from a re-analysis of the deposited data

How the results depend on the processing

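The 8 main values (the number of bare sites, their H3K27ac and H3K4me1 shares in TGFb, SO1 and H2030, and the share without an H3K4 mark in any condition) were recomputed under the alternatives, which gave 78 values. Of these, 28 lay within 1 SD of the main value, or for the count within 1.5 times of it. The SD is that between the values from the 2 LCC replicates taken alone, and it is not an error of the main value. No paired analysis was possible because each condition other than LCC has 1 library per mark and no test was made.

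The number of bare sites was 892 when no LCC H3K4 summit was allowed within 2.5 kb and 1524 with scores of at least 10. Without one or the other LCC replicate it ranged from 5743 to 8496. In that range H3K27ac was found at 47.0% to 50.9% in TGFb, 36.0% to 44.2% in SO1 and 23.1% to 26.99% in H2030, H3K4me1 at 41.6% to 43.6%, 38.9% to 41.3% and 33.9% to 36.1%, and 23.8% to 28.4% had no H3K4 mark in any condition. Without the 2.5 kb neighbours, H2030 H3K27ac was 28.3%, H3K4me1 was 43.8% in TGFb, 44.1% in SO1 and 35.8% in H2030, and 24.4% had no H3K4 mark. With scores of at least 10, H3K27ac was 69.9% in TGFb and 65.6% in SO1, and H3K4me1 46.5% in TGFb and 29.5% in H2030. Counting a mark within 500 bp gave H3K27ac at 52.4%, 44.3% and 23.3%, H3K4me1 at 32.4%, 31.9% and 24.5%, and 34.8% without an H3K4 mark. Counting H3K27ac within 10 kb, a distance added after seeing the data, gave 94.8%, 90.4% and 66.1%. Lists of equal length gave 59.5% for H3K27ac in TGFb. In 5 classes of support, from weakest to strongest and leaving out the class that lay within 1 SD, H3K27ac was at 47.9%, 58.6%, 69.9% and 79.5% in TGFb, 34.5%, 46.5%, 64.2% and 78.6% in SO1, and 21.2%, 24.7%, 25.9% and 50.7% in H2030. TGFb had the highest and H2030 the lowest H3K27ac share under each of these settings, and the cause of the shifts was not tested. With no read counts the effect of depth is unknown.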

Other observations

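Bare sites were spread over the genome. At least 1 was found in 1630 blocks of 500 kb, of which 953 held exactly 1 and 54 held 5 or more. Chromosome 10 had the highest share of bare among its LCC H3K27ac sites, 193 of 1607 (12.01%, Wilson 95% interval 10.5 to 13.7), followed by chromosome 4 with 10.0%. Chromosome 19 had the lowest, 50 of 1296 (3.86%, 2.94 to 5.05), and chromosome 21 followed with 5.20%. The other chromosomes lay between 6.87% and 9.82%.

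The blocks with most bare sites were chr12:66000001-66500000 and chr15:67000001-67500000, with 9 bare sites each among 17 and 21 LCC H3K27ac sites. The second block holds the isolated site chr15:67369169. Blocks at chr2:47000001-47500000 and chr3:149000001-149500000 held 8 each. At chr16:46000001-46500000, 7 of 12 LCC H3K27ac sites were bare. Since no regions prone to false peaks were masked, it is unknown whether all sites in these blocks are true H3K27ac sites.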
